A study of Mus musculus with 9 samples.

Results

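Cells with transcripts of neutrophil primary granules were picked out of single-cell RNA sequencing of mouse knee joints. A cell was taken as a member where its counts of Mpo, Elane, Prtn3 and Ctsg summed to 5 or more and S100a8 with S100a9 made up less than 20% of its counts. The members were thus chosen by measured counts of 6 genes. The rule found 1104 of 16751 cells (6.59% of cells, holding 13.1% of all counts), of which 844 came from 5 sick and 260 from 4 healthy mice. All mice were female 129/Sve animals 8 weeks old. Sick mice had antigen-induced arthritis: they were sensitized to methylated bovine serum albumin (mBSA), which was later injected into the left knee joint. Healthy mice had buffered saline (PBS) injected into that joint, and the labels do not say whether they were sensitized too. The whole left joint was taken 1 week after the injection and sequenced by Seq-Well, which captures single cells with barcoded beads in small wells. Each mouse is 1 library, and the labels do not say whether bone marrow was part of the joint sample.

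Primary, or azurophil, granules are the first granules a developing neutrophil makes. Progenitors and promyelocytes in the bone marrow transcribe myeloperoxidase (Mpo), which makes hypochlorous acid, and the serine proteases neutrophil elastase (Elane), proteinase 3 (Prtn3) and cathepsin G (Ctsg), then shut these genes down. The next stage, the myelocyte, makes secondary granules with cathelicidin (Camp), neutrophilic granule protein (Ngp), lactotransferrin (Ltf) and lipocalin 2 (Lcn2). The stored proteins last longer than the transcripts, so transcripts of primary granule genes mark the young cells.

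The 250 bases before the start of the rule genes and of Ms4a3, a membrane protein of granulocyte and monocyte progenitors, are shown because the genes are transcribed together in these cells. They are RefSeq promoters on GRCm38.p6, read 5′ to 3′ on the strand of the gene, with the letters AGGAAGT, the core read by PU.1 and other ETS factors, in capitals. RefSeq promoters matched 5 of the 6 marker genes (the sixth is Prss57). The windows lie at chr11:87793534-87793783 on the plus strand for Mpo, chr10:79886062-79886311 on the plus strand for Elane, chr10:79879417-79879666 on the plus strand for Prtn3, chr14:56102575-56102824 on the minus strand for Ctsg and chr19:11640852-11641101 on the minus strand for Ms4a3.
Mpo: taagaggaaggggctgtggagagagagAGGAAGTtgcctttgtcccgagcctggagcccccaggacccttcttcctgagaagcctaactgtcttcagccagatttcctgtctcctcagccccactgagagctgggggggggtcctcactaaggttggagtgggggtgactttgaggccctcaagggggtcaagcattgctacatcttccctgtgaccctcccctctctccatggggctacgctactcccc
Elane: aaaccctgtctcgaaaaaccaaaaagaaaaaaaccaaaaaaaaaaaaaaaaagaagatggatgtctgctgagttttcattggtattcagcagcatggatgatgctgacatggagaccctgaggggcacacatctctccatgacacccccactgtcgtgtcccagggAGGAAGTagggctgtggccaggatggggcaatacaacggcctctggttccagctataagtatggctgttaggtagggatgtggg
Prtn3: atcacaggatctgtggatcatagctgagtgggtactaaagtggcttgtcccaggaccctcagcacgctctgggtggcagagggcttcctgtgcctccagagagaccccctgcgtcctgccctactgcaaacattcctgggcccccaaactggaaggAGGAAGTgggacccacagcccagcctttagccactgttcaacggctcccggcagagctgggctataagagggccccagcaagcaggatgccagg
Ctsg: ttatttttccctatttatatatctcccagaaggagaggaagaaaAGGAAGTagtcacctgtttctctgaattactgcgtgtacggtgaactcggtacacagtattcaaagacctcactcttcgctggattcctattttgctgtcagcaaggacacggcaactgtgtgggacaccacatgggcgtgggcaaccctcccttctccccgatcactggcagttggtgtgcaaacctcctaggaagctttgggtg
Ms4a3: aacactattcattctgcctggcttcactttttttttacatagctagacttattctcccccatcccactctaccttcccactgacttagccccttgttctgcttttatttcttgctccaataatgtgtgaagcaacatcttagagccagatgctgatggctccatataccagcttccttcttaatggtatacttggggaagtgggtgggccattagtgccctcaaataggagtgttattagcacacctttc

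On either strand, AGGAAGT stood 223 bases before the start of Mpo, 84 before Elane, 94 before Prtn3 and 206 before Ctsg, and not in the window of Ms4a3. These distances are to the RefSeq starts, and GENCODE M21 places some starts elsewhere. There Mpo starts at chr11:87793581 and Elane at chr10:79886247, inside their windows. Prtn3 starts at chr10:79874476 there, so its window lies inside the gene. Of all 32536 RefSeq promoters cut to the same 250 bases, 7.70% hold these letters, which were chosen with the sequences in view. The MYB core AACNG stood in the windows of Mpo, Elane, Prtn3 and Ctsg and in 74.1% of all windows. The RUNX core TGTGGT stood in that of Ctsg alone of the 5, against 14.0% of all windows, and TTNNGCAA of C/EBP factors in none of the 5, against 9.57%. Prtn3 and Elane are neighbours on mouse chromosome 10, with 3072 bases between them, and Cfd, the gene of complement factor D, starts 2637 bases after Elane (GENCODE M21).

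Since the rule asks for counts of Mpo, Elane, Prtn3 and Ctsg, their detection in members is a description. Mpo had a count in 94.2% of members, Elane in 92.8%, Prtn3 in 85.2% and Ctsg in 64.4%, and 570 members had counts of all 4. In cells with at least 50% haemoglobin counts, which should not make these transcripts, the shares were 15.5% for Mpo, 20.8% for Elane, 6.88% for Prtn3 and 2.57% for Ctsg, at a median of 1295.5 counts a cell against 1805 in members. Only 2 of the 6 markers of the label, Ms4a3 and Prss57, were not used by the rule. Ms4a3 had a count in 62.0% of members and 8.80% of the haemoglobin-rich cells. Prss57, another serine protease of primary granules, had one in 25.5% of members and 2.06% of the haemoglobin-rich cells. Both were detected more often than in the haemoglobin-rich cells, which had fewer counts a cell. Most members also had secondary granule transcripts and many had haemoglobin transcripts, as given below.

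The rule has no natural gap. At its lower edge 136 members had a sum of exactly 5, and 178 cells fell just outside with a sum of 4. The median sum in members was 14 and the highest was 263. The S100 condition left out 82 cells with a sum of 5 or more, while 27 members had 18 to 20% S100 counts and 20 cells at 20 to 22% were left out. Members had more counts than other cells, with medians of 1805 and 865 counts and of 1002.5 and 336 genes a cell. Of all barcodes, 8 occurred in more than 1 mouse, none of them in a member.

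Among genes outside the rule with at least 200 CPM in pooled members, Ms4a3, Nkg7 and Prss57 had the largest excess in members over other cells of the same mouse. The values are means over 9 mice of the log2 difference in CPM, the counts of a gene scaled to the same total, with the SD over mice; since all genes come from the cells that the rule chose, they are a description without a test. Ms4a3 led with 3.53 ± 0.39 (1181 CPM in pooled members and 98.4 in other cells). Nkg7, a membrane protein of cytotoxic granules, followed with 3.37 ± 0.48 (371.5 CPM in members and 36.1 in others), then Prss57 with 3.16 ± 0.37 (224 CPM in members and 20.1 in others). Alas1, the first enzyme of haem synthesis outside red cells (myeloperoxidase is a haem protein), stood at 590 CPM in members and 103 in others (2.47 ± 0.44). Gatm, which makes the precursor of creatine, stood at 213 and 34.6 CPM (2.62 ± 0.63). Calr, Pdia6 and P4hb, which fold proteins in the endoplasmic reticulum (ER), were 2.37 ± 0.36, 2.10 ± 0.36 and 2.01 ± 0.43 higher. The rest of the first 15 were Ramp1, Cmtm7, Atp8b4, Plac8, Cdk6, Pdcd4 and Etfb, at 2.05 to 2.25, and all 15 were higher in 9 of 9 mice.

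Protein folding and ribosome genes shared this excess. Of 25 ER chaperone and stress genes, 19 were higher in members in every mouse, with a median difference of 1.53. The same held for 19 of 26 measured ribosome biogenesis and MYC-linked genes (median 1.26) and for 21 of 28 cytosolic ribosomal protein genes (median 1.11). Over all 9054 genes above 20 CPM the median was 0.42, and 22.4% were higher in every mouse. Of 9 measured early progenitor genes 4 were higher in members in every mouse (median 0.94), and of 11 measured granulocyte transcription factors 3 (median 0.70). Among these were Myb, a transcription factor of dividing progenitors, higher by 1.77 ± 0.32, Kit, the stem cell factor receptor, by 2.06 ± 0.88, Cd34 by 2.22 ± 0.59 and Gfi1, a repressor needed for neutrophil formation, by 2.34 ± 0.93. The secondary granule genes were lower in members, Camp in 8 of 9 mice and Ngp, Ltf and Lcn2 in 9 of 9, although Camp still had a count in 85.8% of members and in 89.1% of haemoglobin-rich cells, at 6996 and 2784 CPM.

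Members differed among themselves along the line from primary to secondary granules. They were split by the primary share, the percentage that Mpo, Elane, Prtn3 and Ctsg make up of the counts of these 4 genes with Camp, Ngp, Ltf and Lcn2. This gave 160 members under 20%, 275 at 20 to under 50%, 380 at 50 to under 80% and 289 at 80% or more. Median counts a cell were 2694.5, 1781, 1806.5 and 1448 in these classes, and the part of depth in the values was not tested. The edges were set after the data had been seen, the split uses expression, and its values are given without a test. From the lowest to the highest share, pooled Ms4a3 stood at 551, 1054, 1084 and 2099 CPM, Prss57 at 76.9, 206, 192 and 441 CPM, and Nkg7 at 194, 303, 292 and 750 CPM. Myb stood at 91.6, 203, 240 and 416 CPM and Kit at 23.8, 37.0, 56.9 and 117 CPM. Cd34 stood at 9.16, 35.4, 119 and 84.9 CPM, highest at 50 to under 80%. Ms4a3, Nkg7 and Kit were higher in the highest than in the lowest class in 9 of 9 mice, and Prss57 and Myb in 8 of 9.

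The ER and ribosome lists followed the same line. Summed ER chaperone and stress genes stood at 5710, 8216, 10382 and 13225 CPM and summed ribosome biogenesis genes at 4210, 5648, 7856 and 9078 CPM, both higher in the highest class in 9 of 9 mice. Summed S phase genes stood at 2639, 2643, 2976 and 2912 CPM and were higher in the highest class in 4 of 9 mice. G2/M genes stood at 6091, 6106, 6115 and 5245 CPM, higher there in 2 of 9. Fcnb, ficolin B, a lectin of neutrophil granules, went the other way with 3524, 2739, 1378 and 1299 CPM, as did Chil3, a chitinase-like protein, with 2225, 1041, 325 and 132 CPM. Summed NADPH oxidase genes, which make the superoxide of the respiratory burst, stood at 2890, 2324, 1445 and 1436 CPM. Haemoglobin moved along this line too: Hbb-bs stood at 83578, 72990, 55923 and 41105 CPM, lower in the highest class in 9 of 9 mice, and mixed cells, as defined below, were 40.6, 36.0, 24.5 and 14.9% of the classes. Their part in the other values was not tested.

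**Figure D1:**
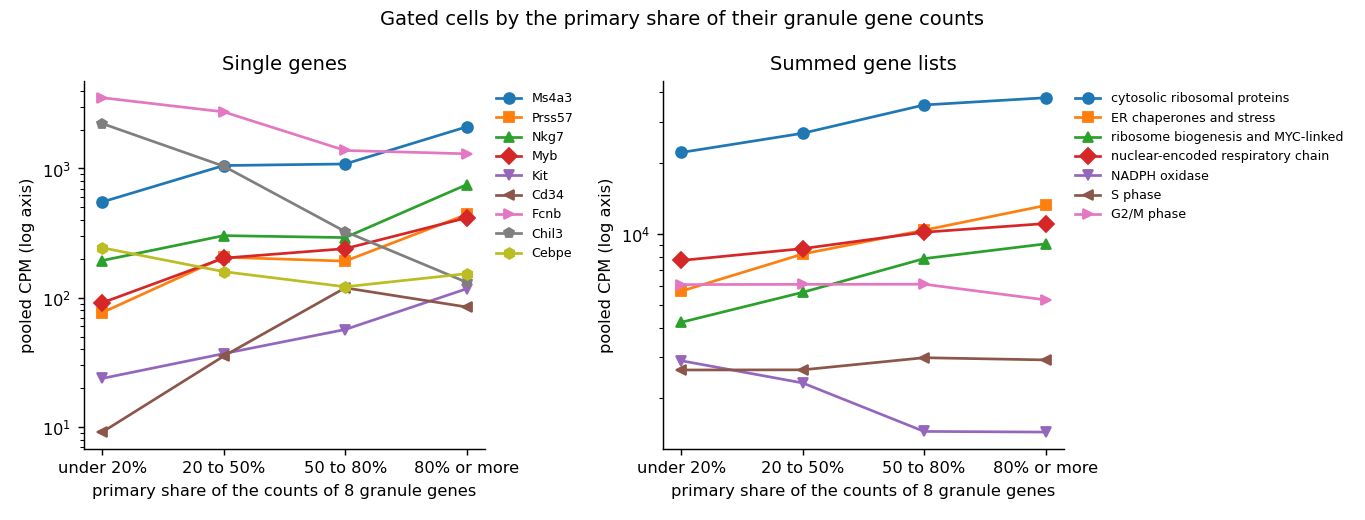
Pooled CPM (log axis) of single genes, left, and of summed gene lists, right, in members by their primary share (under 20%, 20 to 50%, 50 to 80%, 80% or more of the counts of 8 granule genes); each point pools the members of 9 mice. Ms4a3, Prss57, Nkg7, Myb and Kit and the ER and ribosome lists are highest at 80% or more, Fcnb, Chil3 and the NADPH oxidase list are highest under 20%, and the S phase list stays between 2639 and 2976 CPM.

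Transcripts typical of other blood lineages were found in some members. At least 3 counts of monocyte lineage genes were found in 63.6% of members and 19.0% of other cells. Median counts a cell were 1805 and 865. Irf8, a transcription factor of monocyte and dendritic cell formation, had 3 or more counts in 42 members. Ccr2 had a count in 34.0% of members and 4.07% of haemoglobin-rich cells, and F13a1 in 32.3 and 3.32%. Of 12 monocyte lineage genes 3 were higher in members in every mouse (median 0.49, against 0.42 over all genes above 20 CPM). The source of these transcripts was not tested. A few members held most of the counts of some genes. Mcpt8, a basophil protease, had 10 or more counts in 12 members, which held 81.3% of its counts in all members. Prg2, the major basic protein of eosinophils, had 10 or more in 24 members with 76.2% of its counts. Igkc, the immunoglobulin kappa chain, had 10 or more in 16 members with 70.1% of its counts. The sums of these genes per mouse therefore rest on few cells.

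Haemoglobin transcripts separated the healthy mice from one another. At least 3 counts of erythroid genes were found in 99.5% of members and 99.9% of other cells. Members were called mixed where erythroid genes made up 10% or more of their counts or where B-cell genes other than Ighm had 3 or more counts: 300 members, 290 of them by the erythroid and 20 by the B-cell condition. Mixed members were 10.9, 19.1, 28.6, 23.8 and 24.8% of members in sick mice 1, 3, 4, 5 and 6, against 16.1, 65.2, 81.9 and 54.5% in healthy mice 1, 2, 3 and 4. Haemoglobin genes took 4.56 to 9.16% of the members' counts in sick mice, against 7.73, 20.9, 22.9 and 15.3% in the 4 healthy animals in that order. Among other cells of these mice, 51.6% were mixed by the same conditions. By mouse this was 26.6, 34.0, 49.6, 43.9 and 58.7% in sick mice 1, 3, 4, 5 and 6. In healthy mice 1, 2, 3 and 4 it was 32.0, 86.3, 95.3 and 88.3%. In each mouse the mixed share was lower in members than in other cells. Of 2149 cells with at least 50% haemoglobin counts 13 were members (0.605%). Doublets and free RNA cannot be told apart as sources of these counts. Genes called between sick and healthy mice are therefore given again without mixed members where they could be tested (680 cells in sick and 124 in healthy mice, with 73, 16, 15 and 20 in healthy mice 1, 2, 3 and 4).

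**Figure D2:**
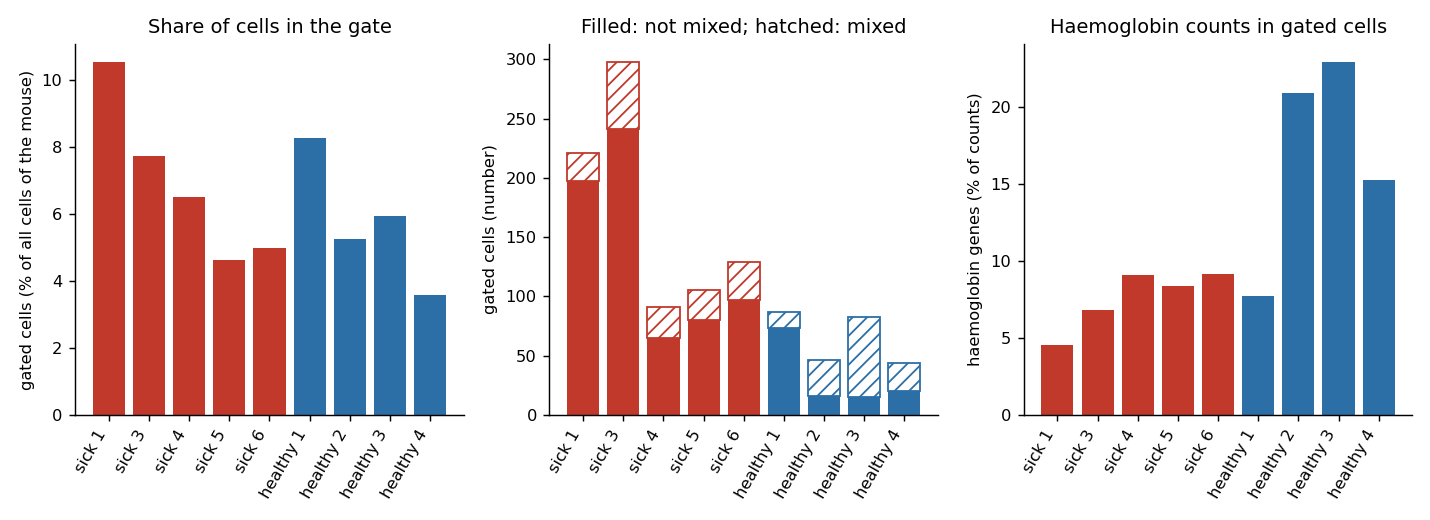
Members by mouse for 5 sick mice (red) and 4 healthy mice (blue), 1 bar a mouse: members as a percentage of all cells (left), number of members with not mixed cells filled and mixed cells hatched (middle), and haemoglobin genes as a percentage of the members' counts (right). The shares of the groups overlap, mixed cells are most of the bar in healthy mice 2, 3 and 4, and these 3 mice stand above all sick mice in haemoglobin counts.

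The shares of members overlapped between the groups. They were 10.6, 7.74, 6.51, 4.63 and 4.97% of cells in sick mice 1, 3, 4, 5 and 6, against 8.28, 5.25, 5.93 and 3.60% in healthy mice 1, 2, 3 and 4. The means were 6.88 ± 2.40% in sick and 5.76 ± 1.94% in healthy mice (SD, n = 5 and 4), and the difference was within the spread of the mice (two-sided exact permutation test, p = 0.492, the same after adjustment over 4 measures). Members numbered 168.8 ± 88.2 in sick and 65 ± 23.2 in healthy mice (exact permutation p = 0.0159, the smallest these mice can give, adjusted 0.0635), while all cells numbered 2440 ± 901 in sick and 1138 ± 225 in healthy mice. Median counts of a member were 1864 ± 294 in sick and 1548 ± 769 in healthy mice (exact permutation p = 0.413, adjusted 0.492). Median genes of a member were 1058 ± 185 in sick and 739 ± 391 in healthy mice (exact permutation p = 0.143, adjusted 0.286). Thinned to 500 counts a cell with a minimum sum of 3, which left out 1436 shallower cells in sick and 328 in healthy mice, the difference was 0.731 percentage points, against 1.12 unthinned. The sign of this difference was not stable: it was -0.289 points with a minimum sum of 3 and -1.39 points against healthy mouse 1 alone. Without mixed members the means were 5.52% in sick and 2.87% in healthy mice (exact permutation p = 0.190). Here mixed cells left the members but stayed among the cells that the members were divided by. They were 26.6 to 58.7% of other cells in sick mice and 32.0, 86.3, 95.3 and 88.3% in healthy mice 1, 2, 3 and 4. These means are therefore not shares among not mixed cells, and their difference is not read as one.

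Counts were summed over the members of each mouse, giving 183153 to 810643 counts in sick and 70606 to 285197 in healthy mice, out of 1589079 to 4675909 and 897477 to 1514252 counts in all cells. Of 4453 genes tested with edgeR's quasi-likelihood test, 19 were higher (0.427%) and 16 were lower (0.359%) in sick mice at a Benjamini-Hochberg adjusted p under 0.05. Without mixed members 15 of 3737 were higher (0.401%) and 2 were lower (0.0535%), and 12 genes were called both ways, 34.3% of the first set and 70.6% of the second. Of these 17 calls without mixed members, 4 (Igkc, Jchain, Ifi27l2a and Wfdc17) held whichever mouse was left out, and the other 13 were lost in 2 to 7 of the 9 such fits, all 13 without sick mouse 5 and all 13 without healthy mouse 3. Set against healthy mouse 1 alone, whose members had few mixed cells, 7 of 6517 genes were higher (0.107%) and 4 were lower (0.0614%). In that fit the spread comes from the sick mice alone and the lone healthy mouse is assumed to vary like them, so its changes are given below as values without a test. Levels below are TMM-scaled CPM of the summed members, and changes are log2 sick over healthy ± SE. The largest rises and falls were picked for naming among called genes whose groups did not overlap, so such separation is a description. The calls of 10 genes held whichever mouse was left out: Ifitm3, Ifi27l2a, Isg15, Igkc, Jchain, Hba-ps4, Hba-a1, Hba-a2, Hbb-bt and Hist1h1a.

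No primary granule gene was called. The rule genes are given as a description. Mpo averaged 4106 ± 261 CPM in sick and 3718 ± 421 CPM in healthy mice (0.14 ± 0.16). Elane averaged 4980 ± 331 CPM in sick and 4885 ± 1235 CPM in healthy mice (0.03 ± 0.18). Prtn3 averaged 2023 ± 258 CPM in sick and 1612 ± 243 CPM in healthy mice (0.33 ± 0.16), and Ctsg 1002 ± 84.6 and 962 ± 224 CPM (0.07 ± 0.17). Outside the rule, 0 of 17 tested genes were called by edgeR and 0 by DESeq2, with 2 at an unadjusted edgeR p under 0.05. Ms4a3 had 1214, 1417, 1654, 996 and 1348 CPM in sick mice 1, 3, 4, 5 and 6, against 1239.6, 1069.6, 1479.6 and 751 CPM in healthy mice 1, 2, 3 and 4 (0.21 ± 0.19, edgeR adjusted p = 0.725). Prss57 had 225, 308, 254, 244 and 211 CPM in sick mice, against 184, 274, 161 and 103 CPM in healthy mice (0.45 ± 0.24, edgeR adjusted p = 0.513). Both genes overlapped between the groups. Without mixed members they stood at 0.10 ± 0.21 and 0.30 ± 0.27, and neither was called. Fcnb had 2289 to 3157 CPM in sick mice, all above the 1639 to 2085 CPM of healthy mice, and missed the threshold (0.53 ± 0.16, edgeR adjusted p = 0.146), as it did without mixed members (0.65 ± 0.20, adjusted p = 0.190).

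**Figure D3:**
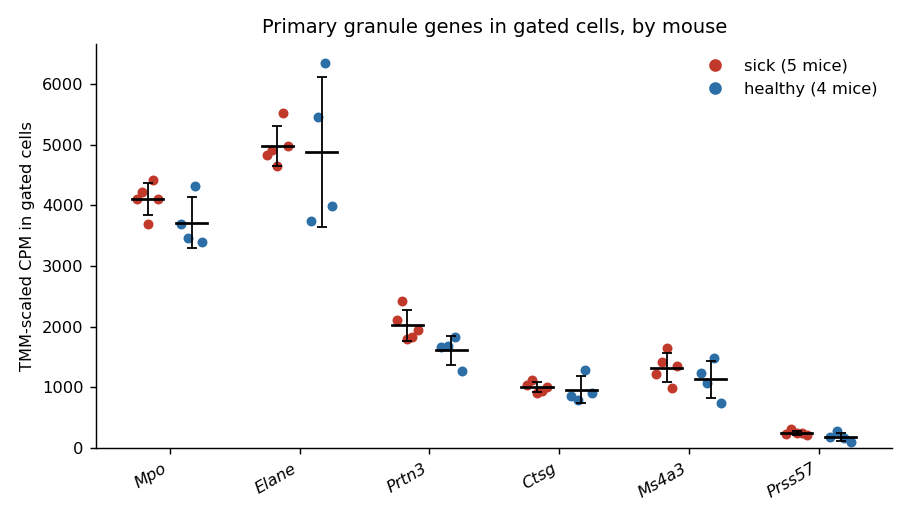
TMM-scaled CPM of the 4 rule genes and of Ms4a3 and Prss57 in the summed members of 5 sick and 4 healthy mice; points are mice, bars are means with SD. The groups overlap for each of the 6 genes.

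Of 20 tested interferon-stimulated genes, 4 were called higher in sick mice by edgeR and 3 by DESeq2. All 20 had a positive change, against 47.5% of all tested genes, with a median of 0.97 against -0.02 over all tested genes. Without mixed members 3 of 18 were called and 17 were positive, with a median of 0.74. Isg15, a ubiquitin-like modifier, had 58.7, 61.0, 92.9, 73.2 and 79.0 CPM in sick mice 1, 3, 4, 5 and 6, against 7.49, 0, 13.5 and 0 CPM in healthy mice 1, 2, 3 and 4. No mouse of one group reached the other (edgeR adjusted p = 0.00377). Healthy members held 3 counts in all and sick members 127, a ratio of 11.5 with a 95% counting interval of 3.85 to 56.5. Ifi27l2a, a small interferon-induced membrane protein, had 164, 125, 291, 167 and 101 CPM in sick mice, against 18.7, 41.1, 26.9 and 0 CPM in healthy mice (2.90 ± 0.46, edgeR adjusted p = 0.00149). Its groups did not overlap either, and it was called without mixed members (3.30 ± 0.54, adjusted p = 0.00153). With a gate minimum of 10 counts it stood at 2.77 and missed the threshold (edgeR adjusted p = 0.0598). Ifitm3, which hinders viruses from entering cells, had 473, 594, 365.5, 610 and 422 CPM in sick mice, against 251, 137, 94.2 and 85.4 CPM in healthy mice (1.58 ± 0.26, edgeR adjusted p = 0.00149).

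Ifi27 had 176, 87.6, 167, 109.8 and 167 CPM in sick mice 1, 3, 4, 5 and 6, against 59.9, 0, 13.5 and 51.2 CPM in healthy mice 1, 2, 3 and 4 (1.77 ± 0.41, edgeR adjusted p = 0.0344). Its groups did not overlap, but its call was lost in 7 of the 9 fits that left out 1 mouse (sick mouse 1, 4, 5 or 6 or healthy mouse 2, 3 or 4). Without mixed members Ifi27 and Ifitm3 were called (2.47 ± 0.51 and 1.41 ± 0.28, edgeR adjusted p = 0.0220 and 0.0121), while Isg15 had too few counts to be tested. Against healthy mouse 1 alone the changes were 3.21 for Isg15, 3.14 for Ifi27l2a, 1.04 for Ifitm3 and 1.25 for Ifi27. The same transcripts differed in the cells outside the gate: Isg15 had 130.5 to 243 CPM there in sick and 14.9 to 31.0 CPM in healthy mice, and Ifi27l2a 268 to 539 CPM in sick and 14.1 to 65.1 CPM in healthy mice. What free RNA from those cells adds to the values in members was not tested. Bst2, a tether of budding viruses, was positive but missed the threshold (2.00 ± 0.49, edgeR adjusted p = 0.0523).

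Of 8 tested MHC class I genes 2 were higher, and the others were not called. H2-D1, a class I heavy chain, had 1021, 1306, 904, 1285 and 1173 CPM in sick mice 1, 3, 4, 5 and 6, against 670.4, 479.9, 739.8 and 632 CPM in healthy mice 1, 2, 3 and 4 (0.85 ± 0.18, edgeR adjusted p = 0.0183). B2m, the light chain shared by class I molecules, had 762.5, 1006, 886, 1297 and 1137 CPM in sick mice, against 648, 631, 471 and 564 CPM in healthy mice (0.80 ± 0.18, edgeR adjusted p = 0.0321). In both genes the lowest sick mouse stood above the highest healthy mouse. H2-D1 was called without mixed members (0.94 ± 0.21, edgeR adjusted p = 0.0302) and B2m was not (0.73 ± 0.21, adjusted p = 0.153). In members with under 5 secondary granule counts H2-D1 stood at 0.21 and B2m at 0.54, and neither was called. The call of H2-D1 was lost without sick mouse 3, sick mouse 5 or healthy mouse 2, and that of B2m without sick mouse 3, 5 or 6 or healthy mouse 2, 3 or 4. Reads of H2-D1 and of other class I heavy chains could have been assigned to one another.

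Lcn2, Lrg1, Wfdc17 and Cyba were called higher in sick mice. Lcn2, which binds bacterial iron carriers, had 674.5, 825, 527, 890.4 and 777 CPM in sick mice 1, 3, 4, 5 and 6, against 374.5, 370.2, 498 and 427 CPM in healthy mice 1, 2, 3 and 4 (0.85 ± 0.19, edgeR adjusted p = 0.0255). Lrg1, an acute-phase glycoprotein, had 225, 296, 142, 138 and 202 CPM in sick mice, against 97.4, 96.0, 53.8 and 34.2 CPM in healthy mice (1.40 ± 0.31, edgeR adjusted p = 0.0255). No healthy mouse reached a sick one in either gene. Wfdc17 averaged 169.5 ± 57.0 CPM in sick and 38.6 ± 38.0 CPM in healthy mice (1.89 ± 0.40, edgeR adjusted p = 0.0183), and Cyba, the small membrane subunit of the NADPH oxidase, 661 ± 50.1 and 368 ± 77.9 CPM (0.83 ± 0.18, edgeR adjusted p = 0.0220). Lcn2 lost its call without sick mouse 3 or 5 or healthy mouse 1, 2 or 4, Lrg1 without sick mouse 3 or healthy mouse 3 or 4, Wfdc17 without sick mouse 3 or healthy mouse 2, and Cyba without sick mouse 5 or healthy mouse 2 or 3. Without mixed members Lcn2, Lrg1 and Wfdc17 were called (1.11 ± 0.24, 1.59 ± 0.36 and 2.37 ± 0.47) and Cyba was not (edgeR adjusted p = 0.0751). With S100a8 and S100a9 below 10% of a cell's counts, Lcn2, Lrg1 and Cyba stood at 0.37, 1.29 and 0.59 and were not called. Wfdc17 stood at 1.98 there and was called. With a gate minimum of 10 counts Wfdc17 and Lrg1 stood at 2.02 and 1.18 and were not called (edgeR adjusted p = 0.0611 and 0.158). Lcn2 and Cyba were called there. In members with under 5 secondary granule counts Cyba stood at 0.35 and was not called.

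Of 13 tested secondary and tertiary granule genes, 1 was called in all members (Lcn2) and 4 without mixed members, which adds Ngp, Camp and Chil3. Without mixed members, Ngp had 6707, 8412, 5826, 11196 and 9364 CPM in sick mice 1, 3, 4, 5 and 6, against 3993, 5382, 2509 and 2664 CPM in healthy mice 1, 2, 3 and 4 (1.17 ± 0.23, edgeR adjusted p = 0.0121). Camp had 8207, 7852, 7567, 10618 and 13016 CPM in sick mice, against 4064, 7506, 2947 and 3812 CPM in healthy mice (1.04 ± 0.23, edgeR adjusted p = 0.0302). The groups did not overlap in either gene. Chil3 changed by 1.28 ± 0.29 (edgeR adjusted p = 0.0302). In all members Ngp changed by 0.75 ± 0.19 (adjusted p = 0.0525). Ngp lost its call without sick mouse 5 or healthy mouse 3, and Camp and Chil3 each without sick mouse 5 or 6 or healthy mouse 1, 3 or 4. Members with a primary share of 80% or more were 34.5, 24.1, 41.5, 26.2 and 22.7% of not mixed members in sick mice. In healthy mice they were 28.8, 43.8, 46.7 and 75.0%. The primary share has Camp, Ngp, Ltf and Lcn2 in its divisor, so by construction it falls where these genes rise. It is no separate measure of the mix of members, whose part in the change was not tested. S100a9, which the rule used, is given as a description, with 1.08 ± 0.25 without mixed members.

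**Figure D4:**
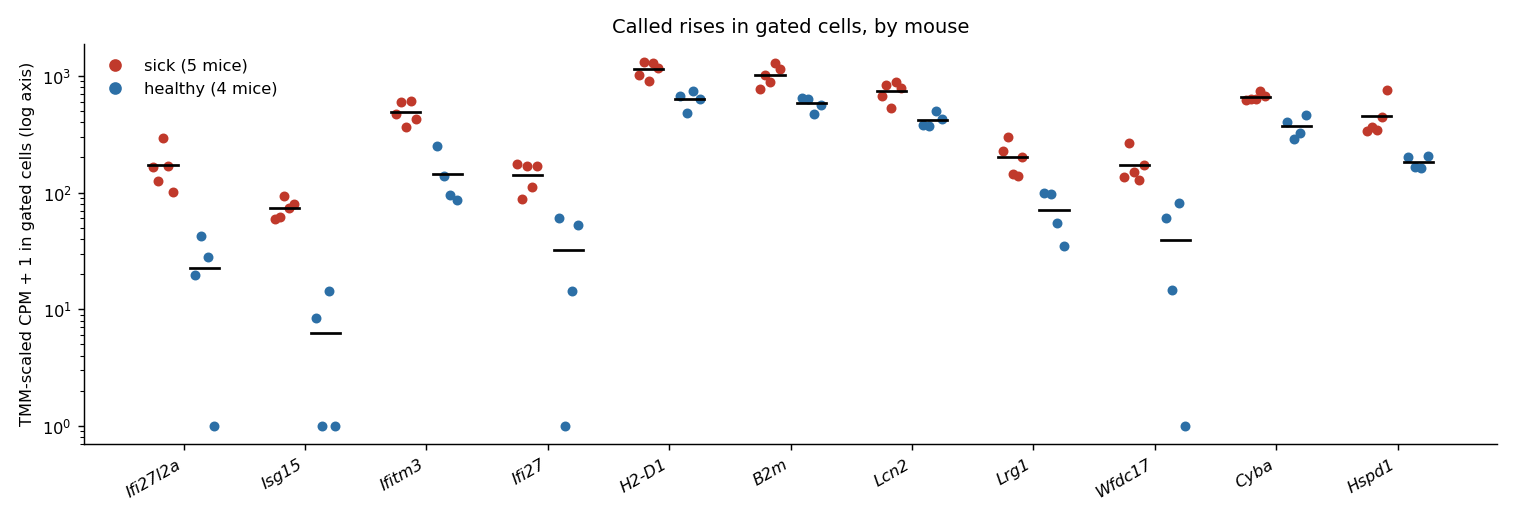
TMM-scaled CPM + 1 (log axis) in the summed members of 5 sick and 4 healthy mice for 11 genes called higher in sick mice; points are mice and bars are means. The 11 genes were drawn from calls whose groups did not overlap, so every sick mouse stands above every healthy mouse by choice. Called genes with overlapping groups, such as Jchain and Hspa1b, are left out. Healthy mice at 0 counts stand at 1 on the axis.

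The heat-shock genes Hspa1b, Hspa1a, Hsp90aa1 and Hsph1 were called higher in sick mice. Hspa1b, an inducible cytosolic chaperone, had 1.96, 182, 223, 569 and 391 CPM in sick mice 1, 3, 4, 5 and 6, against 3.75, 13.7, 0 and 17.1 CPM in healthy mice 1, 2, 3 and 4 (edgeR adjusted p = 0.0221). Sick mouse 1 stood among the healthy mice. Sick members held 403 counts of it and healthy members 3, a ratio of 36.5 with a counting interval of 12.4 to 178. Hspa1a, its near-identical neighbour, averaged 206 ± 179 CPM in sick and 6.17 ± 7.18 CPM in healthy mice (edgeR adjusted p = 0.0417), and reads can be split between the pair. Hsp90aa1 and Hsph1 changed by 1.17 ± 0.27 and 3.01 ± 0.66 (edgeR adjusted p = 0.0344 and 0.0255), with overlapping groups. None of these 4 was called without mixed members, where Hspa1b stood at 5.33 ± 1.28 (edgeR adjusted p = 0.0512). Hspa1a and Hspa1b lost their calls in 8 of the 9 fits without 1 mouse (all but sick mouse 1), in 4 of which, those without sick mouse 3, 4, 5 or 6, they had too few counts to be tested, Hsp90aa1 in 6 (sick mouse 5 or 6 or any healthy mouse) and Hsph1 in 4 (sick mouse 5 or healthy mouse 1, 2 or 4). Hspa1a, Hspa1b and Hsp90aa1 were the 3 of 18 genes called on the list of genes induced while tissue is taken apart, which does not hold Hsph1, and the labels do not give the handling time of each mouse.

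Hspd1, the mitochondrial chaperonin, had 332, 365, 341, 443 and 759.7 CPM in sick mice 1, 3, 4, 5 and 6, against 202, 164.5, 161 and 205 CPM in healthy mice 1, 2, 3 and 4 (1.25 ± 0.26, edgeR adjusted p = 0.0183). Every sick mouse was above every healthy mouse, and the gene was called without mixed members (1.30 ± 0.30, edgeR adjusted p = 0.0346), a call that was lost there without sick mouse 4, 5 or 6 or any healthy mouse. Vps29, a subunit of the retromer that sorts proteins in endosomes, averaged 155 ± 31.1 CPM in sick and 63.9 ± 31.3 CPM in healthy mice (1.41 ± 0.32, edgeR adjusted p = 0.0289). Without mixed members Vps29 was not called (1.36 ± 0.41, edgeR adjusted p = 0.161) and its groups overlapped. In all members Hspd1 lost its call without healthy mouse 2 or 3, and Vps29 without sick mouse 1, 3 or 5 or healthy mouse 1 or 2.

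Of 4 tested plasma cell genes 3 were called higher in the members of sick mice, and all 3 encode antibody parts. Igkc had 1464, 1961, 849, 874 and 474 CPM in sick mice 1, 3, 4, 5 and 6, against 131, 274, 457 and 51.2 CPM in healthy mice 1, 2, 3 and 4 (2.40 ± 0.39, edgeR adjusted p = 0.00149). Jchain, which joins antibody units, had 542, 456, 588.5, 232 and 259 CPM in sick mice, against 48.7, 109.7, 242 and 34.2 CPM in healthy mice (2.12 ± 0.38, edgeR adjusted p = 0.00377). The groups were apart for Igkc and overlapped for Jchain. Ighg1, the heavy chain of IgG1, had 176, 1278, 31.0, 56.9 and 109.8 CPM in sick mice, against 3.75, 0, 0 and 0 CPM in healthy mice (edgeR adjusted p = 0.0183), with 1097 counts in sick and 1 count in healthy members. In sick mouse 3, 1 member held 344 of these counts, or 31.4% of those in sick members, and 6 members of 2 mice held 72.9% of the counts in all members. The call of Ighg1 was lost in 8 of the 9 fits without 1 mouse, with too few counts to be tested in 4 of them (without sick mouse 1, 3, 5 or 6) and adjusted p of 0.0549 to 0.0735 without 1 of the healthy mice, and it could not be tested without mixed members. Without mixed members Igkc and Jchain were called at 4.00 ± 0.44 and 3.23 ± 0.46 (edgeR adjusted p = 1.99e-06 and 0.000178). In all members against healthy mouse 1 alone their changes were 3.17 and 3.14. Igkc had 1402 to 2383 CPM in the cells outside the gate of sick mice and 349 to 1349 CPM in those of healthy mice. Over all mice Igkc had a count in 43.5% of members and 44.8% of haemoglobin-rich cells, at 1069 and 575 CPM. Detection alone thus does not set members apart from those cells. Among members 50.8% had a count in sick and 19.6% in healthy mice. What free RNA adds to these values was not tested.

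The genes called lower were mainly those of red cells. Hba-a1, an alpha globin chain, had 4714, 6515, 6628, 8786 and 9442 CPM in sick mice 1, 3, 4, 5 and 6, against 6419, 30496, 40916 and 21126 CPM in healthy mice 1, 2, 3 and 4 (-1.78 ± 0.32, edgeR adjusted p = 0.00377). Healthy mouse 1 stood among the sick mice and the other 3 stood above them. Hba-a2 and Hbb-bt changed by -1.85 ± 0.32 and -1.56 ± 0.28 (edgeR adjusted p = 0.00342 and 0.00377). The pseudogene Hba-ps4, which shares sequence with the alpha globins, changed by -2.16 ± 0.32 (adjusted p = 0.000921), and the embryonic globins Hbb-bh1, Hbb-bh3 and Hbb-y were called too, at -1.87 ± 0.35, -1.77 ± 0.37 and -1.52 ± 0.36. Near-identical globin genes can share reads, so the split between them is uncertain. Slc4a1, the anion exchanger of red cells, and Epb41, a red cell membrane skeleton protein, changed by -1.19 ± 0.27 and -1.35 ± 0.30 (edgeR adjusted p = 0.0268 and 0.0255).

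No red cell gene was called without mixed members, where Hba-a1 stood at -0.54 ± 0.24 (edgeR adjusted p = 0.489) and Hbb-bt at -0.59 ± 0.20 (adjusted p = 0.248), while Hba-ps4 and Epb41 were not tested. Since 290 of the 300 mixed members were set by their share of erythroid counts, leaving them out limits these genes by construction. Against healthy mouse 1 alone the changes of Hba-a1 and Hba-a2 were 0.22 and 0.17. Hbb-bh1 lost its call without healthy mouse 2, Hbb-bh3 without sick mouse 3 or healthy mouse 2, Slc4a1 without sick mouse 1 or 5 or healthy mouse 2 or 3, Epb41 without sick mouse 3 or 5 or healthy mouse 2, 3 or 4, and Hbb-y without sick mouse 1, 3 or 5 or healthy mouse 2, 3 or 4.

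**Figure D5:**
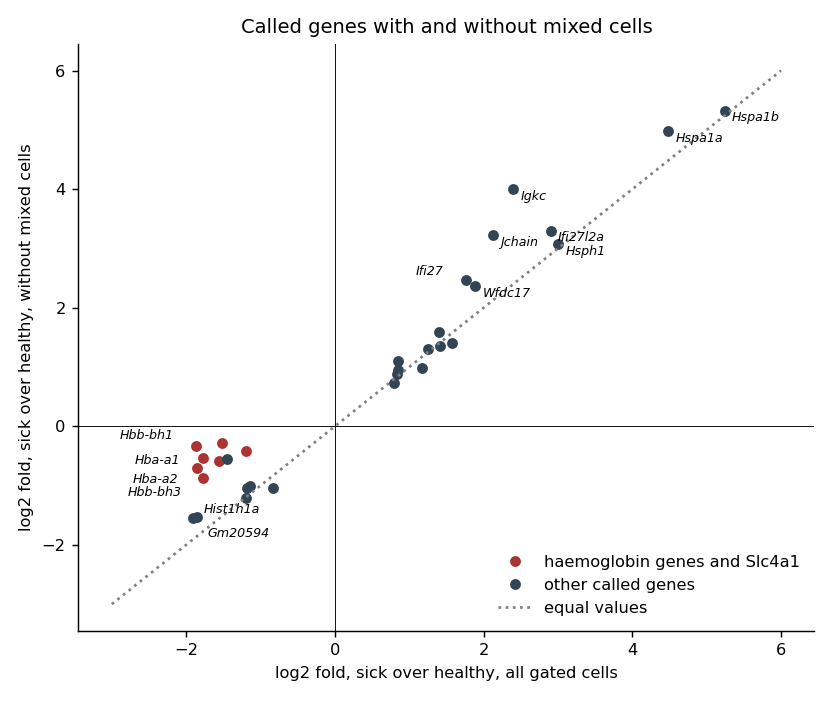
Change in sick mice (log2 sick over healthy) in members without mixed cells, vertical, against that in all members, horizontal, for genes called in all members and tested both ways; the dotted line marks equal values. Haemoglobin genes and Slc4a1 lie at -1.19 or below across and nearer to 0 up the page, while Igkc and Jchain lie above the line.

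Of the other falls, Hist1h1a, a linker histone, had 46.9, 39.8, 49.6, 56.9 and 39.5 CPM in sick mice 1, 3, 4, 5 and 6, against 149.8, 206, 229 and 119.5 CPM in healthy mice 1, 2, 3 and 4 (-1.91 ± 0.28, edgeR adjusted p = 0.000921). The groups were far apart, but without mixed members it missed the threshold (-1.55 ± 0.40, edgeR adjusted p = 0.0876). Its groups overlapped there, with 34.6 to 65.6 CPM in sick and 58.2 to 187 CPM in healthy mice. Transcripts of replication histones such as Hist1h1a mostly lack a poly(A) tail. The mitochondrial ribosomal RNA mt-Rnr1 averaged 7456 ± 2161 CPM in sick and 16962 ± 7453 CPM in healthy mice (-1.19 ± 0.25, edgeR adjusted p = 0.0183), and CT010467.1, annotated as ribosomal RNA on chromosome 17, averaged 711 ± 190.1 and 1268 ± 316 CPM (-0.84 ± 0.20, edgeR adjusted p = 0.0374). Both were also lower without mixed members (-1.04 ± 0.22 and -1.04 ± 0.23, edgeR adjusted p = 0.0270 and 0.0302). The call of mt-Rnr1 was lost without sick mouse 3 or 5 or healthy mouse 3 or 4, and that of CT010467.1 without sick mouse 3 or 5 or healthy mouse 2, 3 or 4. CT010467.1 overlaps the gene Gm42418 on the other strand, and whether counting used strand is not given in the sources used here. Mitochondrial genes, mt-Rnr1 among them, took 3.47 ± 0.95% of the members' counts in sick and 6.34 ± 1.97% in healthy mice. This share, often read as a sign of RNA quality, holds mt-Rnr1 and is no separate measure beside it. The part of RNA quality in the change of either gene was not tested. The remaining calls were Mir6236, Gm20594 and the processed pseudogenes Gm13456 and Gm6548, at -1.15 to -1.86, none of which was called without mixed members.

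Lists of growth and division genes held few calls. By edgeR, 0 of 23 S phase genes (0 at an unadjusted p under 0.05) and 0 of 27 G2/M genes (4 at an unadjusted p under 0.05) were called, with median changes of -0.05 and -0.06; DESeq2 called 1 of them, Cenpe, a kinetochore motor, lower. Mki67, a marker of dividing cells, averaged 811 ± 196 CPM in sick and 1294 ± 337 CPM in healthy mice (-0.67 ± 0.19, edgeR adjusted p = 0.112). Of 17 histone genes 14 had a negative change (median -0.28), and edgeR called 0, with 4 at an unadjusted p under 0.05; Hist1h1a is on none of the lists. The ER chaperone list had 0 of 24 called by edgeR, 5 at an unadjusted p under 0.05 and a median of 0.17. The cytosolic ribosomal proteins had 0 of 25 called, 0 at an unadjusted p under 0.05 and a median of -0.01, and the nuclear-encoded respiratory chain 0 of 27, 4 and 0.20. Of these 27, 24 had a positive and 3 a negative change, against 47.5% positive over all tested genes. Without mixed members all 27 were positive (median 0.33), against 49.2%. Of 9 tested granulocyte transcription factors and 6 early progenitor genes edgeR called 0, with 1 and 2 at an unadjusted p under 0.05. DESeq2 called 0 genes in these 6 lists. The 7 tested genes of the mitochondrially encoded list all had a negative change (median -0.85, and -0.42 without mixed members). Both edgeR and DESeq2 called 0 of them, with 6 at an unadjusted edgeR p under 0.05. Myb averaged 242 ± 34.4 CPM in sick and 360 ± 139.6 CPM in healthy mice (-0.56 ± 0.22, edgeR adjusted p = 0.332). Cd74, the MHC class II chaperone, was called without mixed members (2.32 ± 0.50, edgeR adjusted p = 0.0270) and not in all members (1.10 ± 0.34, adjusted p = 0.151), and the call was lost without sick mouse 3 or 5 or healthy mouse 1 or 3.

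Whether the change in sick mice differed between the members and the next stage was tested as an interaction, with the mouse as a term. The next stage was taken as the 8008 cells outside the gate with 10 or more counts of Camp, Ngp, Ltf and Lcn2 together (47.8% of all cells). Of 7528 genes edgeR called 0 higher and 0 lower (0%), with 382 at an unadjusted p under 0.05 and a lowest adjusted p of 0.166. Without mixed cells 9 of 4899 genes were called, 6 higher (0.122%) and 3 lower (0.0612%) in members than in the secondary granule cells, and 4 of these (Ngp, Camp, Lcn2 and Ltf) were used by the rule for the second gate and are a description. The change of Chil3 was 1.26 ± 0.25 greater in members (edgeR adjusted p = 0.00267) and that of Plbd1, a phospholipase B-like protein, 2.16 ± 0.51 greater (adjusted p = 0.0278). Within members Chil3 went down from the lowest to the highest primary share, as given above. The second gate sets a minimum for secondary granule counts and the first does not. The part of this in the difference of Chil3 was not tested. The change of Mcpt8 was -3.44 ± 0.49 and that of Prss34, another basophil protease, -3.80 ± 0.61 in members relative to the secondary granule cells (edgeR adjusted p = 1.82e-06 and 3.39e-05). In healthy members 1 cell held 145 of 265 Mcpt8 counts (54.7%) and 1 cell 68 of 95 Prss34 counts (71.6%). With mixed cells kept, the differences were 0.25 for Chil3, 1.05 for Plbd1, -1.29 for Mcpt8 and -2.35 for Prss34, and none was called. The fit without mixed cells was not planned and held 124 healthy members. It did not take account of the mix of members by primary share, given above for each mouse. The ninth call, Prg4, passed the filter through the secondary granule cells, had too few counts to be tested in members and is not read as a difference of the members. For Ifi27l2a the secondary granule cells changed by 3.57 (edgeR adjusted p = 1.37e-06) and for Ifitm3 by 1.77 (adjusted p = 0.000127), beside 2.90 and 1.58 in members, and neither difference was called.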

How the data were processed

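The authors sequenced each joint in several rounds and merged the reads per mouse, per the labels' protocols, with bcl2fastq, Picard and STAR named in the submitters' processing notes. Of the builds the labels name (GRCh38, GRCm38, mm9) the one used is not clear; mouse symbols were looked up in GENCODE M21 (GRCm38) for coordinates. The deposited table holds raw counts of 24296 genes in 16751 cells, which the authors had already filtered: the lowest cell has 397 counts and the highest mitochondrial share is 19.9%. No doublet caller was used; mixed members were left out as an alternative.

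Members were gated on the deposited counts and no other filter was set. Counts were summed per mouse and tested with edgeR 4.0.16 in R 4.3.3 (filterByExpr, TMM, quasi-likelihood F test, Benjamini-Hochberg over all tested genes at 0.05); the fit was checked on simulated counts. DESeq2 1.42.0 was an alternative. SE is the change divided by the square root of F. Pooled CPM are sums over cells without TMM scaling. Per-mouse shares and medians were set against each other by exact permutation of the mice (SciPy 1.17.1). Ratios of counts have exact 95% intervals, which cover counting error only. The mouse is the replicate, and P-values measure the spread between these mice.

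Genes were named by a rule: the 15 most enriched with at least 200 CPM, up to 12 rises and 12 falls with at least 100 CPM and no overlap between groups, the 6 markers, up to 4 genes of each of 35 lists by p, and up to 5 interaction calls in each direction. Genes called beyond that rule were named after their values were seen. The members and lists were chosen with earlier results of these data known. Mice of the 2 groups share the numbers 1, 3 and 4, but same-numbered mice did not deviate together (correlations 0.0746, 0.00471 and -0.0358), so the number was no block. Alternatives were other gate minimums, a lower S100 limit, other scalings and filters, leaving out single mice, healthy mice 2, 3 and 4, mixed members or members with 5 or more secondary granule counts.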

Additional observations from a re-analysis of the deposited data

Results flagged for a closer look

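In 70 groups of 4 or 5 mice, 1 mouse stood apart from the others of its group in 7 values by Dixon's test at 95%, a test that chance passes in about 1 of 20 groups. Among healthy mice, mouse 1 had a median of 2695 counts a member, above the other 3. Among sick mice, mouse 3 had 1278 CPM of Ighg1, mouse 6 had the lowest Vps29 with 101 CPM and the highest Hspd1 with 759.7 CPM, and mouse 4 had the highest Gm20594 with 55.8 CPM. Among healthy mice, mouse 1 was the highest for Ighg1 with 3.75 CPM, which was 1 count, and mouse 2 for CT010467.1 with 1741 CPM.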

How the results depend on the processing

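The difference in the share of members (1.12 percentage points, sick minus healthy) became -0.289 with a gate minimum of 3 counts. It was -0.113 among cells with at least 300 genes and -1.39 without healthy mice 2, 3 and 4. That last alternative was added after the data were seen. So was leaving mixed members out of the share but not out of the cells it is divided by (2.65). Leaving out 1 mouse gave 0.203 to 1.96. Against 19 genes called higher and 16 lower, counts were 82 and 30 with no filter on low counts, which also moved the median change of all genes to 0.28, 32 and 37 with a minimum of 3, 9 and 1 with a minimum of 10, 10 and 11 with S100 below 10%, 15 and 2 without mixed members, 7 and 4 without healthy mice 2, 3 and 4 and 0 and 2 in members with under 5 secondary granule counts. The replicate block gave 12 and 22, and DESeq2 gave 18 and 24. Leaving out 1 mouse gave 7 to 23 higher (7 without healthy mouse 2) and 7 to 44 lower (44 without healthy mouse 1). The interaction count of 0 became 11 with no filter on low counts, 7 with a secondary granule minimum of 5, 9 without mixed cells and 0 to 7 without 1 mouse (7 without healthy mouse 1). Ms4a3 turned to -0.0756 in members with under 5 secondary granule counts, and Hba-a2 and Hba-a1 to 0.17 and 0.22 without healthy mice 2, 3 and 4. Of 80 values of the rule genes, which have no test, 6 changed sign: Elane (0.03) stood at -0.313 to -0.0185 in 5 settings and Ctsg (0.07) at -0.0910 without mixed members. Of the other values for single genes, 457 kept direction and side of the threshold and 236 kept direction only. The causes were not tested. Healthy sums of 70606 to 285197 counts limit genes with few counts.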

Other observations

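Over the 1104 members, granule genes fell into pairs of unequal likeness. Spearman's rho of counts scaled to the cell was 0.71 for Ngp with Camp and 0.56 for Fcnb with Camp, against 0.07 for Fcnb with Mpo. Mpo with Elane had 0.50 and Mpo with Ms4a3 0.42. The gate fixes a minimum for the sum of Mpo, Elane, Prtn3 and Ctsg, and the cells share libraries and depth, so these values are a description. Fcnb, ficolin B, had 10 or more counts in 184 members of all 9 mice, which held 79.1% of its counts in members and had medians of 38 primary and 73.5 secondary granule counts.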
